A study of Homo sapiens with 6 samples.

Results

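The genes described here encode the non-collagen part of the extracellular matrix: 49 listed matrix glycoproteins, proteoglycans, basement membrane linkers and the lysyl and prolyl modifying enzymes that crosslink or hydroxylate matrix proteins. They were listed by name, with no threshold on a measured value but with earlier results of these data known, and all 49 were found among the 22411 named genes measured. The study used U87, an established human glioblastoma line, on 6 Affymetrix whole-transcript arrays. For the 3 treated arrays, cells were kept for 48 h in medium with a carborane-bearing amino acid at 1 mM, and the 3 control arrays are of untreated cells. Cells of both groups had grown for 48 h before that in EMEM with serum and pyruvate, and the labels name no vehicle. A carborane is a cage of boron, carbon and hydrogen, and the compound is known here only by that description. The question is which genes respond to the compound. The labels do not say whether the 3 arrays of a group came from separate cultures, and p-values therefore reflect only how these arrays vary, which could be technical variation.

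Matrix glycoproteins are secreted proteins with binding sites for cells, growth factors and each other. Fibrillins polymerise into microfibrils, on which elastin is laid down and to which latent TGF-beta is tethered through some of the LTBP proteins. Proteoglycans carry long sulphated sugar chains, and hyaluronan is a related sugar chain that is not sulphated and has no protein core. Hydroxylases modify lysine and proline residues of collagens inside the cell, and lysyl oxidases crosslink collagen and elastin outside it. Glioblastoma cells make much of the matrix around them, including tenascin C, versican, fibronectin and hyaluronan.

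The microfibril gene FBN1, the matricellular genes THBS1, SRPX, SPARC and TGFBI, the proteoglycan gene VCAN and the crosslinking enzyme genes LOXL1 and LOXL2 were lower in treated cells by more than 2 on the log2 scale. The hyaluronan synthase gene HAS2 and the tenascin C gene TNC were higher by 0.98 and 0.83. Of the 49 genes, 27 fell and 7 rose, and the other 15 did not pass the test (limma, Benjamini-Hochberg adjusted p under 0.05 over all genes tested). That is 69.4% of the matrix genes, 55.1% lower and 14.3% higher, against 45.6% of all genes tested, 21.6% lower and 24.0% higher. Brighter genes were called more often, and 35 of the matrix genes had a mean signal at or above the median of all genes (6.12). Of these 35, 28 were called, 21 lower (60.0%) and 7 higher (20.0%), against 74.8% of all genes in that range, 34.7% lower and 40.1% higher. Their median log2 change was -0.70, against 0.04 over all genes in that range. Of the 14 dimmer matrix genes, 6 were called, all lower (42.9%), against 16.4% of all genes below the median. A fall of at least 1 was called for 14 of the 49 (28.6%), against 4.94% of all genes. No matrix gene was called with a rise of that size, against 4.98% of all genes, and changes of that size in either direction made up 9.92% of all genes. The median log2 change was -0.23 over the 49 genes and 0.01 over all genes. Treated and control values did not overlap for 39 of the 49 (79.6%), 31 lower and 8 higher in treated cells, against 53.5% of all genes in either direction. Lack of overlap was also more frequent in brighter genes. Among genes at or above the median it was found for 30 of the 35 matrix genes and for 9056 of all 11206 genes.

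**Figure D1:**
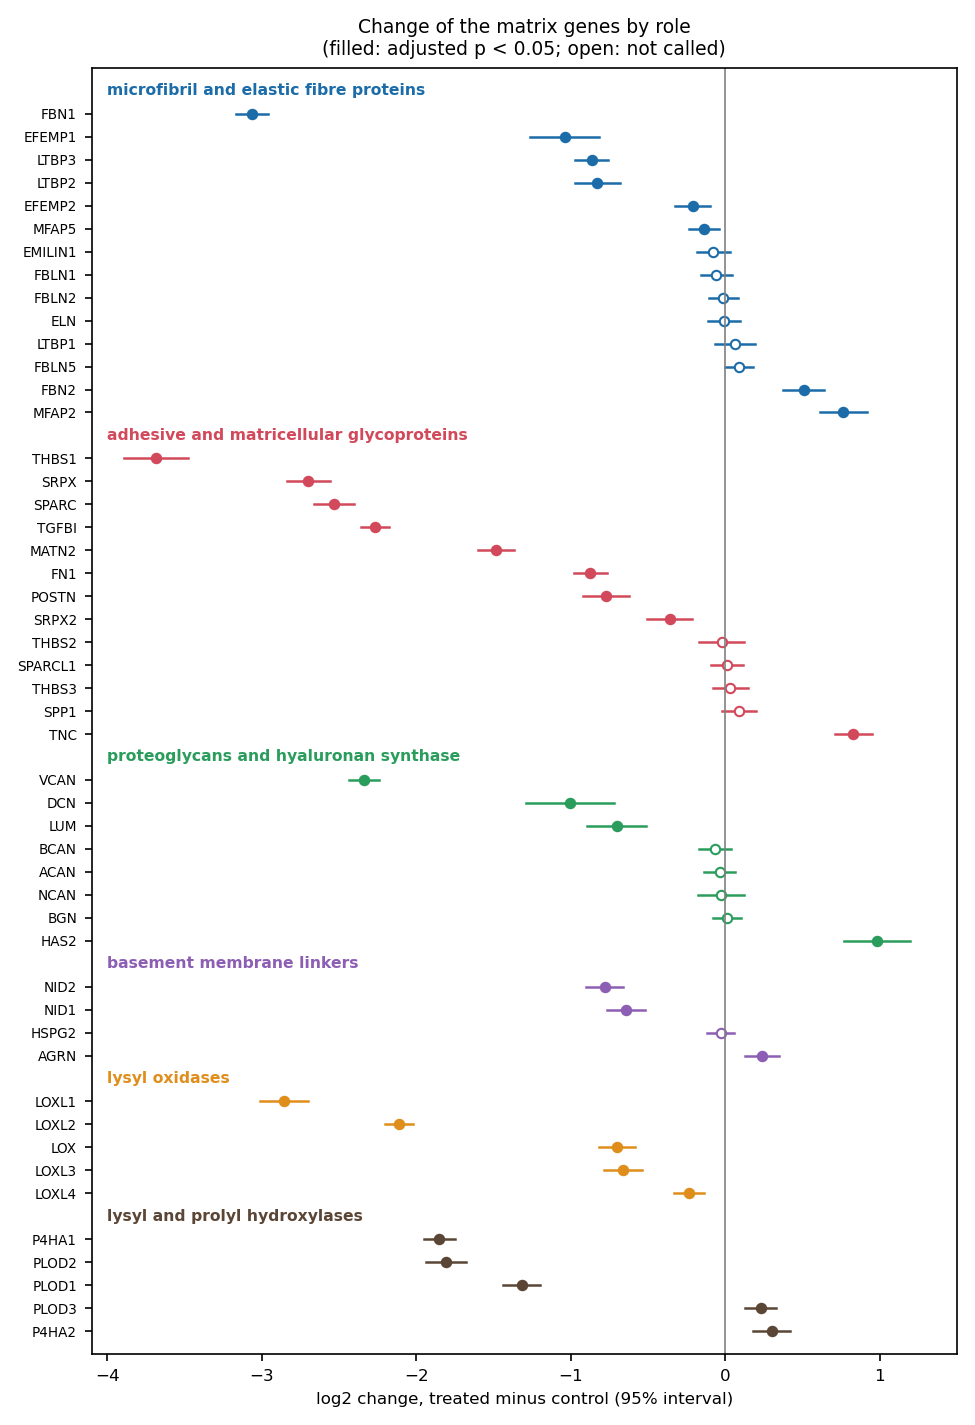
Log2 change (treated minus control, horizontal axis) of each of the 49 matrix genes, grouped by role. Points are estimates from 3 treated and 3 control arrays, lines are 95% intervals, and filled points passed an adjusted p of 0.05. All 5 lysyl oxidase genes lie left of 0, whereas the hydroxylase genes lie on both sides.

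Array medians over all rows of the table were 5.18 to 5.24. Signals of all named genes correlated at 0.998 between arrays of one group and at 0.959 to 0.963 between groups (Pearson, across genes, which are not independent replicates). Of 9 glioma and astrocyte markers, VIM and CD44 gave 15.96 and 14.45 in treated cells and 16.67 and 14.01 in control cells. SOX9, a glial transcription factor, was at 8.48 in treated and 10.34 in control cells, with a change of -1.86, and NES, the nestin gene, at 5.78 in treated and 7.67 in control cells, with a change of -1.89. GFAP, S100B, SOX2, AQP4 and OLIG2 were below 6.12 in both groups, and of these OLIG2 was called, at 0.37. The lineage markers above that median in both groups were thus VIM, CD44 and SOX9. Of 7 fibroblast and pericyte markers, which include collagen genes, 5 were lower and 1 higher, with list means of 6.04 to 6.05 in treated arrays and 6.87 to 6.98 in control arrays. Among them COL1A2 fell by 2.83 and COL1A1 by 1.75. Of 4 endothelial markers KDR fell by 2.18, to below 6.12 in treated cells, and PECAM1, VWF and CDH5 were near background. Of 5 immune markers none was called, with CD68 at 16.11 in treated and 16.10 in control cells and the other 4 near background. The part of these markers in the results below was not tested. In such bulk RNA, fewer cells making a transcript and less of it per cell cannot be told apart.

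Counts by role, here and below, stand beside 21.6% of all genes called lower and 24.0% called higher. Among all genes at or above the median these shares were 34.7% and 40.1%. The microfibril and elastic fibre genes moved in both directions. Of 14, 6 fell and 2 rose, and the median change was -0.07. FBN1, which encodes the main microfibril protein fibrillin-1, was at 12.07, 12.05 and 11.98 in treated cells, against 15.07, 15.09 and 15.13 in control cells. All treated values lay far below all control values. The change was -3.06 (SE 0.04, limma adjusted p = 2.24e-08), rank 141 among the 22411 genes ordered from the largest fall. Its paralog FBN2, the fibrillin of developing tissue, went the other way. FBN2 was at 8.62, 8.48 and 8.50 in treated cells, against 8.00, 8.10 and 7.98 in control cells, without overlap, a rise of 0.51. MFAP2, a small glycoprotein bound to fibrillin, was at 9.59, 9.56 and 9.66 in treated cells and at 8.93, 8.72 and 8.87 in control cells, a rise of 0.76 with no overlap. The related MFAP5 was near background in both groups, with a log2 change of -0.14 (limma adjusted p = 0.0282). It lost the call under 6 other settings, at adjusted p of 0.0679 to 0.119.

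Some LTBP proteins, LTBP1 and LTBP3 among them, hold latent TGF-beta on microfibrils. LTBP1 was at 14.61, 14.55 and 14.44 in treated cells and 14.51, 14.46 and 14.44 in control cells. These values overlapped, and the change of 0.06 did not pass the test (95% interval -0.07 to 0.19). LTBP2 and LTBP3 fell, with log2 changes of -0.83 and -0.86 and no overlap of the groups. Of the TGF-beta genes themselves, TGFB1 fell by 0.64 and TGFB2 rose by 0.14, and CCN2, a matricellular gene known as a TGF-beta target, fell by 0.71. The fibulins are calcium-binding glycoproteins that link elastin to microfibrils. EFEMP1, which encodes fibulin-3, was at 6.86, 7.17 and 7.01 in treated cells and 8.16, 8.07 and 7.93 in control cells, with no overlap and a change of -1.04 (SE 0.09, limma adjusted p = 7.48e-05). EFEMP2, encoding fibulin-4, fell by 0.21. FBLN5 at 0.09, FBLN2 at -0.01 and FBLN1 at -0.06 were not called, and the values of FBLN1 and FBLN2 were near background. Elastin itself, ELN, was at 6.28 in both groups, close to the median of all genes, and a change of -0.01 did not pass the test. EMILIN1, an elastin-associated glycoprotein near background, had a log2 change of -0.08.

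The adhesive and matricellular genes held the largest single fall, that of THBS1. Of 13, 8 fell and 1 rose, and the median change was -0.77. THBS1 encodes thrombospondin-1, which inhibits angiogenesis and activates latent TGF-beta. It was at 6.28, 6.39 and 6.26 in treated cells, against 9.83, 9.99 and 10.16 in control cells. The treated values came close to the median of all genes, and the change of -3.68 (SE 0.09, limma adjusted p = 1.48e-07) has an uncertain size. It stood at rank 96 from the largest fall. The paralogs THBS2, at 9.52, 9.62 and 9.52 in treated and 9.60, 9.66 and 9.47 in control cells, and THBS3 did not pass the test, with changes of -0.02 (95% interval -0.17 to 0.12) and 0.03 (-0.08 to 0.15).

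SRPX, a sushi-repeat protein of the cell surface and matrix, was at 11.82, 11.82 and 11.72 in treated cells and 14.42, 14.45 and 14.58 in control cells. Its log2 change was -2.70 (SE 0.06), with no overlap, whereas its paralog SRPX2 fell by 0.36. SPARC encodes osteonectin, a collagen-binding matricellular protein found in invasive glioma. It was at 11.40, 11.37 and 11.50 in treated cells, against 13.89, 14.01 and 13.97 in control cells. The groups were widely apart, by -2.53 (SE 0.05, limma adjusted p = 9.95e-08), while its homolog SPARCL1 was near background in both groups, at a change of 0.01. TGFBI, an integrin-binding protein named for its induction by TGF-beta, was at 13.80, 13.81 and 13.76 in treated cells and 16.07, 16.03 and 16.07 in control cells. The log2 change was -2.27 (SE 0.04), again without overlap.

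MATN2, the gene of the filament-forming matrilin-2, was at 5.72, 5.77 and 5.87 in treated cells and 7.28, 7.25 and 7.28 in control cells. The treated values lay below the median of all genes, so the log2 change of -1.48 has an uncertain size. FN1 encodes fibronectin, on which many cells attach and on which other fibres assemble. It was at 15.61, 15.56 and 15.59 in treated cells and 16.52, 16.43 and 16.43 in control cells, a change of -0.87 with no overlap (SE 0.04, limma adjusted p = 4.15e-06). These are among the brightest signals of the arrays, as are those of TGFBI in control cells and of TNC in treated cells. Any flattening of the scale at that level was not tested for FN1, TGFBI or TNC. POSTN, the gene of periostin, fell by 0.77 to below the median of all genes. SPP1 encodes osteopontin, a secreted ligand of integrins and CD44. It was at 15.02, 14.93 and 14.98 in treated cells and 14.89, 14.93 and 14.84 in control cells. The groups overlapped, and the change of 0.09 was not called (95% interval -0.02 to 0.20).

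The riser among these genes was TNC. It encodes tenascin C, a counter-adhesive glycoprotein abundant in glioma and wound matrix. TNC was at 16.03, 15.93 and 15.96 in treated cells, against 15.17, 15.18 and 15.08 in control cells, a rise of 0.83 (SE 0.05, limma adjusted p = 8.87e-06). All treated arrays lay above all control arrays.

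**Figure D2:**
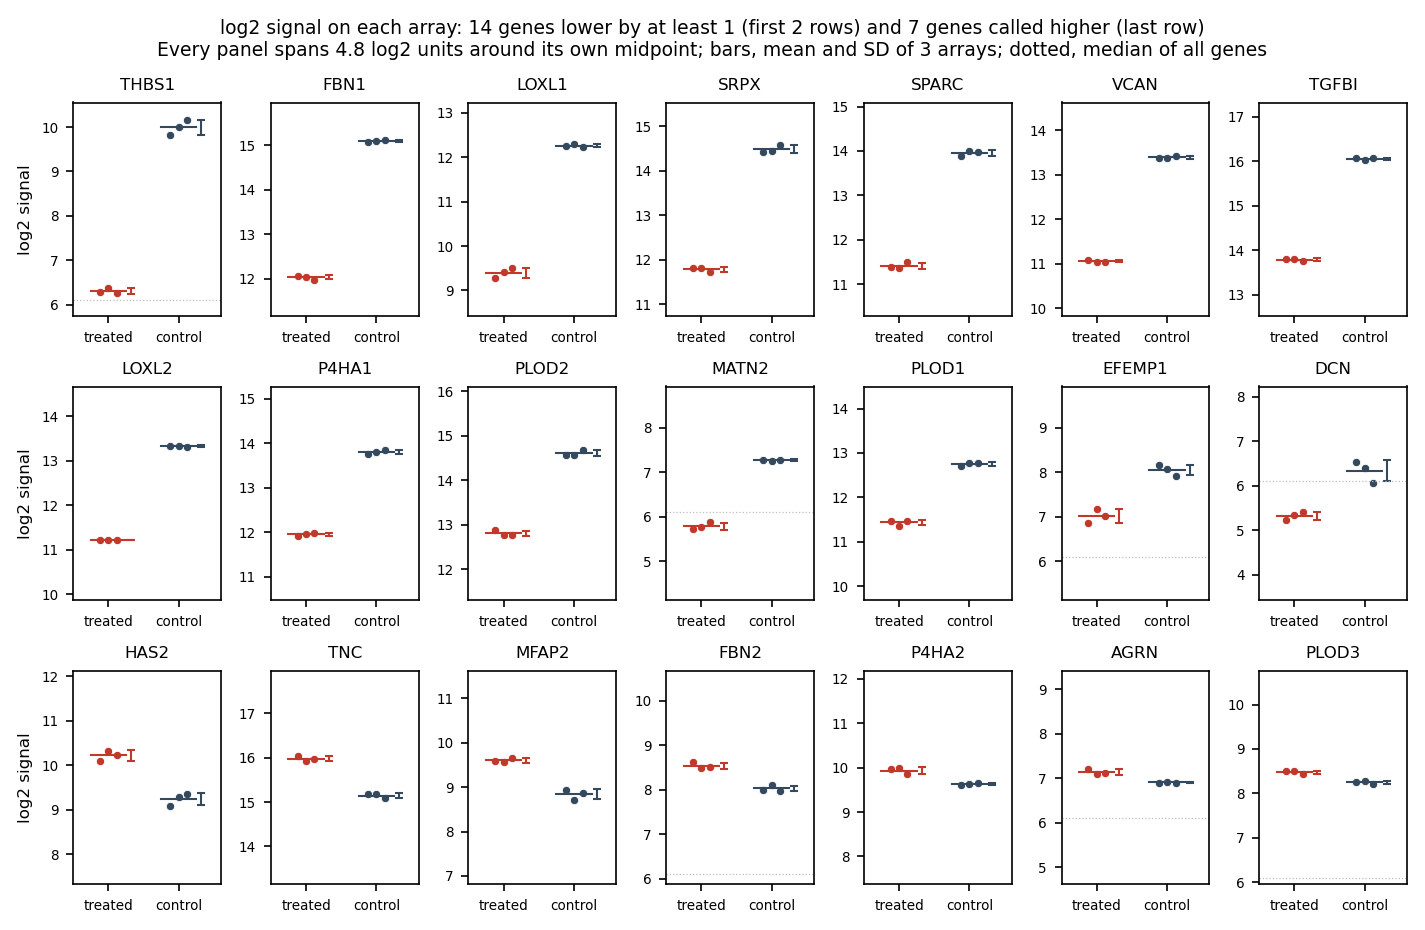
Log2 signal (vertical axis) on each array for the 14 matrix genes called lower by at least 1 and the 7 called higher, treated arrays left of control arrays. Points are arrays, lines means and bars SD of 3 arrays, and the dotted line is the median of all genes. In all 21 genes the groups do not overlap, MATN2 and DCN lie below the median of all genes in treated cells, and THBS1 lies just above it.

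Among the proteoglycan and hyaluronan genes, 3 of 8 fell and 1 rose, and the median change was -0.05. VCAN encodes versican, a large chondroitin sulphate proteoglycan that binds hyaluronan. It was at 11.09, 11.04 and 11.05 in treated cells and at 13.38, 13.38 and 13.43 in control cells. The change was -2.34 (SE 0.04, limma adjusted p = 4.32e-08), with spreads of 0.03 within each group. HAS2, the enzyme that makes hyaluronan at the cell membrane, was at 10.10, 10.33 and 10.23 in treated cells and 9.08, 9.28 and 9.36 in control cells. It thus rose by 0.98 (SE 0.09, limma adjusted p = 8.32e-05), with no overlap, the largest rise of the 49.

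The small leucine-rich proteoglycans DCN and LUM bind collagen fibrils, and their genes are direct neighbours on chromosome 12. DCN, the decorin gene, was at 5.23, 5.35 and 5.41 in treated cells and 6.53, 6.41 and 6.07 in control cells. The change of -1.01 is of uncertain size, as control replicate 3 lay lowest of its group and all treated values were below the median of all genes. A further, dimmer row for DCN had a log2 change of 0.04, so the rows disagree, and the mean of both rows gave -0.48. LUM, the lumican gene, fell by 0.70, also to below that median. KERA, the next gene beside LUM, was near background in both groups and was not called at -0.10. The biglycan gene BGN and the brain and cartilage proteoglycans ACAN, BCAN and NCAN were near background in both groups, and changes of 0.01, -0.04, -0.06 and -0.03 did not pass the test. HAPLN1, the link protein gene beside VCAN, was also near background in both groups and was not called, at 0.09.

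Basement membrane linkers connect laminin, collagen IV and the cell surface. NID2 and NID1, the nidogen genes, fell, with changes of -0.78 and -0.64, and NID1 was below the median of all genes in both groups. AGRN, encoding the heparan sulphate proteoglycan agrin, was at 7.21, 7.10 and 7.11 in treated cells and 6.90, 6.92 and 6.89 in control cells, a rise of 0.24 (adjusted p = 0.00420 by limma). HSPG2, the perlecan gene, was close to the median of all genes, and its change of -0.03 did not pass the test.

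All 5 lysyl oxidase genes fell, and the median change was -0.70. These copper enzymes oxidise lysine side chains of collagen and elastin, which then join into crosslinks. LOXL1, which acts mainly on elastin, was at 9.28, 9.41 and 9.51 in treated cells, against 12.26, 12.29 and 12.22 in control cells. The log2 change was -2.86 (SE 0.06, limma adjusted p = 1.21e-07), at rank 167 from the largest fall. LOXL2, a crosslinker of collagen IV, was at 11.22, 11.21 and 11.22 in treated cells and 13.34, 13.34 and 13.30 in control cells. The treated arrays differed by no more than 0.01, and the log2 change was -2.11 (SE 0.04, limma adjusted p = 4.80e-08). LOX itself was at 13.68, 13.65 and 13.72 in treated cells and 14.35, 14.34 and 14.46 in control cells, without overlap, a fall of 0.70. LOXL3 fell by 0.66, and LOXL4, below the median of all genes in both groups, by 0.23.

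The hydroxylase genes moved in both directions. Of 5, 3 fell and 2 rose, with a median of -1.32. All 5 had a mean at or above the median of all genes, a range in which 34.7% of all genes were lower and 40.1% higher. A mix of calls is therefore no trait of this family. P4HA1 encodes the main catalytic subunit of collagen prolyl 4-hydroxylase, whose product stabilises the collagen helix. It was at 11.92, 11.96 and 11.97 in treated cells and 13.76, 13.80 and 13.84 in control cells. The log2 change was -1.85 (SE 0.04, limma adjusted p = 1.21e-07). P4HA2, an alternative catalytic subunit, was at 9.97, 9.98 and 9.85 in treated cells and 9.60, 9.64 and 9.66 in control cells, a rise of 0.30 with no overlap. P4HB, the subunit shared by both and a disulfide isomerase, rose by 0.19.

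The lysyl hydroxylases prepare lysines for crosslinking and for sugar attachment. PLOD2, which acts on the ends of collagen chains, was at 12.88, 12.78 and 12.76 in treated cells and 14.58, 14.57 and 14.69 in control cells, a log2 change of -1.81 (SE 0.05). PLOD1, which acts on the helical part, was at 11.48, 11.36 and 11.47 in treated cells and 12.70, 12.78 and 12.78 in control cells, a log2 change of -1.32 (SE 0.05). In both genes the groups were well apart. PLOD3, which also transfers sugars to hydroxylysine, was at 8.50, 8.50 and 8.44 in treated cells and 8.26, 8.28 and 8.21 in control cells, a small rise of 0.23 with no overlap (adjusted p = 0.00337 by limma).

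The promoter sequences of these 5 hydroxylase genes are shown because paralogs of close function moved in opposite directions. Some genes of matrix-modifying enzymes are known to be induced by hypoxia-inducible factors, and a part of these factors here was not tested. The sequences are from RefSeq (GRCh38.p14), 250 bases up to the gene's start, 5′ to 3′ on the gene's strand. Capitals mark ACGTG on either strand, a form of the core of a hypoxia response element. Other forms of that core, such as GCGTG, were not counted over all genes and are not marked. The fallers P4HA1, PLOD2 and PLOD1 come first and the risers P4HA2 and PLOD3 after them.
P4HA1, chr10:73096867-73097116, minus strand: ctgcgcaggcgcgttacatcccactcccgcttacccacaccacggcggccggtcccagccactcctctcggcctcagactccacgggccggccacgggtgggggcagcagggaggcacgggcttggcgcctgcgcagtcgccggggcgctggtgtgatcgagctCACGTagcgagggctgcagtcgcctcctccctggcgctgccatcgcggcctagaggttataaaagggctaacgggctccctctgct
PLOD2, chr3:146161185-146161434, minus strand: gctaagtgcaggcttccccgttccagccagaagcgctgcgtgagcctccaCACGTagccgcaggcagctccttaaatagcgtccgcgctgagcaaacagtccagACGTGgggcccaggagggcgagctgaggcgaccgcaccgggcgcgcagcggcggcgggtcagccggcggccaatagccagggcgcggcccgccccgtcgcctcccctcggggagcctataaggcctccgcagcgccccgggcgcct
PLOD1, chr1:11934467-11934716, plus strand: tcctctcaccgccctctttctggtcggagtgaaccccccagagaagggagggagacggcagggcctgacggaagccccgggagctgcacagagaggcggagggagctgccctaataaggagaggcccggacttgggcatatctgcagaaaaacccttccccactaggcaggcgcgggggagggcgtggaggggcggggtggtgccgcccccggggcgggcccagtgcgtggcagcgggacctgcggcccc
P4HA2, chr5:132227092-132227341, minus strand: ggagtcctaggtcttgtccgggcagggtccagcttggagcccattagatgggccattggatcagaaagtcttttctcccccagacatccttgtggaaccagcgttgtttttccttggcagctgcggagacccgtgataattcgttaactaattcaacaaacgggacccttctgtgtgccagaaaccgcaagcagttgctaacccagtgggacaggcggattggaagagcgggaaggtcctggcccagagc
PLOD3, chr7:101217582-101217831, minus strand: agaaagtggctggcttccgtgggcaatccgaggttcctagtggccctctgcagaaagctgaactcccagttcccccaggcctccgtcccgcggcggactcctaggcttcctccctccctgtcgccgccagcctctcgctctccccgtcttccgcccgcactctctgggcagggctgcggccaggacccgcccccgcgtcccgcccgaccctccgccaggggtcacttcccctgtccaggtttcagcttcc

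The letters ACGTG were found 86 bases before the start in P4HA1 and 200 and 146 bases before it in PLOD2. They were not present in the windows of PLOD1, P4HA2 and PLOD3. Another form of the core, GCGTG, can be read in the printed bases of PLOD1 and PLOD2. It is absent on either strand from those of P4HA1, P4HA2 and PLOD3. Promoter windows of 250 bases before and 50 after a start were matched for 38 of the 49 genes. A window with ACGTG was found for 3 of 21 fallers (14.3%), LOX, PLOD2 and P4HA1, for 2 of 5 risers, FBN2 and MFAP2, for 3 of 12 genes not called and for 24.9% of 27305 genes with a window. The letters GGAATG, bound by TEAD factors, were found on either strand for 5 of 21 fallers (23.8%), FBN1, SPARC, THBS1, SRPX2 and LOXL3, for 1 of 5 risers, P4HA2, for 1 of 12 genes not called and for 16.7% of all genes. TGANTCA (AP-1) was found for 2 of 21 fallers, 1 of 5 risers, MFAP2, 0 of 12 genes not called and 9.37% of all genes. TATAAA was found for 2 of 21 fallers, 0 of 5 risers, 3 of 12 genes not called and 14.0% of all genes. CAGACA (bound by SMAD proteins) was found for 1 of 21 fallers, 2 of 5 risers, TNC and P4HA2, 4 of 12 genes not called and 19.9% of all genes. These counts describe letters in a short window and are no test of a factor.

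The unequal changes within families were compared as the change of the log ratio of the paralogs on the same array. With 3 arrays against 3, the exact two-sided permutation test cannot go below p = 0.1, which 23 of 27 pairs reached, each without overlap of the groups (adjusted p = 0.117 over the 27 pairs). The share of other gene pairs that reach this was not computed, and 53.5% of all single genes showed no overlap. The count of pairs is therefore no result about families. SPARCL1, LOXL4 and NID1 were near background in both groups, which leaves ratios with them of uncertain size. The FBN1 change minus that of FBN2 was -3.57, that of THBS1 minus THBS2 -3.66 and that of SRPX minus SRPX2 -2.34. For P4HA1 minus P4HA2 it was -2.15, for PLOD2 minus PLOD3 -2.04 and for LOX minus LOXL1 2.16. Pairs whose ratios overlapped between the groups were LTBP2 and LTBP3 (0.04), LOX and LOXL3 (-0.04), THBS2 and THBS3 (-0.06) and NID1 and NID2 (0.14). Within the ratios the SD of 3 arrays was 0.09 in treated and 0.01 in control cells for P4HA1 and P4HA2, and 0.06 and 0.08 for FBN1 and FBN2.

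**Figure D3:**
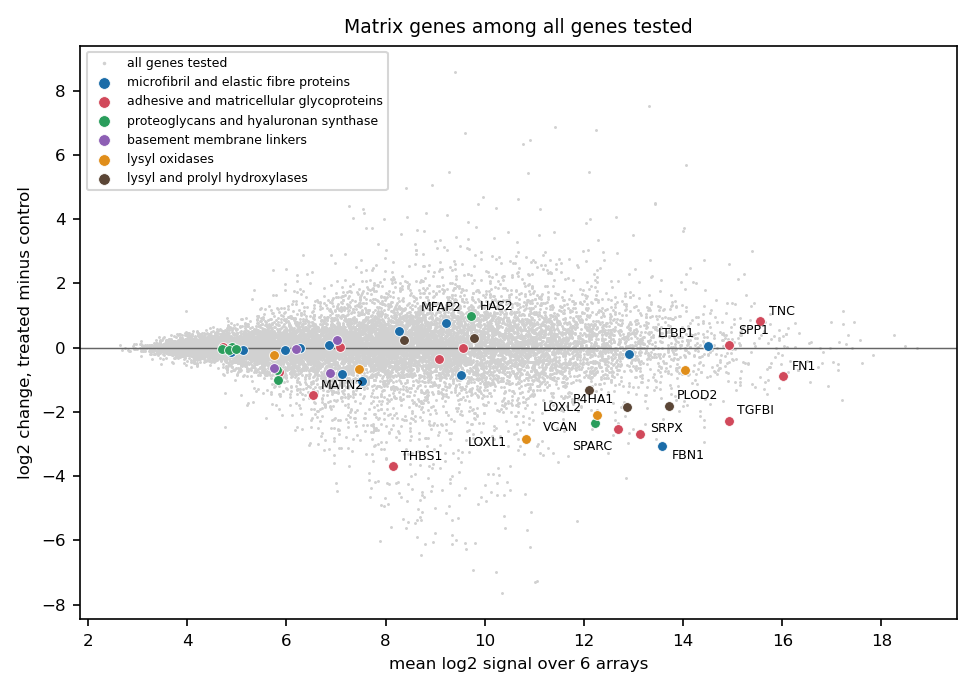
Log2 change (treated minus control, vertical axis) against the mean log2 signal over 6 arrays for the 22411 genes tested (grey) and the 49 matrix genes (coloured by role). The matrix genes with large falls are mostly bright. Among those that fell by more than 2, TGFBI lies farthest right and THBS1 farthest left.

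Related genes that were not among the 49 were taken from 4 further lists, with 95 of 101 genes measured here. Of these 95, 29 fell and 21 rose, and the median change was -0.05. Of all genes tested, 21.6% were called lower and 24.0% higher. A mean at or above the median was found for 56 of the 95, and of all genes in that range 34.7% were lower and 40.1% higher. Of 24 other matrix glycoproteins, 9 fell and 3 rose. HMCN1, the gene of hemicentin-1, fell by 1.19 and SVEP1, a large adhesive protein, by 0.92. Treated means of both, 5.59 and 6.07, lay below the median of all genes, so these sizes are uncertain. TNFAIP6 (TSG-6), which transfers protein chains onto hyaluronan and is induced by inflammatory cytokines, was at 13.27 in treated and 8.95 in control cells, a rise of 4.33 (SE 0.10, limma adjusted p = 1.47e-07). Of 29 other proteoglycan and hyaluronan genes, 7 fell and 5 rose. SPOCK1, a testican proteoglycan, fell by 2.25 and the syndecan gene SDC1 by 1.19, whereas SRGN, the intracellular proteoglycan serglycin, rose by 2.21. CD44, the main hyaluronan receptor, rose by 0.44.

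Of 16 other modifying enzymes and chaperones, 8 fell and 4 rose. TGM2, a transglutaminase that crosslinks matrix proteins through glutamine, fell by 2.86. The secretory kinase gene FAM20C and the procollagen processing enhancer gene PCOLCE fell too, with changes of -2.65 and -1.02. Of 26 genes of glycosaminoglycan chain synthesis, 5 fell and 9 rose. Of these 26 genes, 23 had a mean at or above the median, as had 14 of the 16 modifying enzymes and chaperones. Among all genes in that range 74.8% were called, 34.7% lower and 40.1% higher. CSGALNACT2, which starts or extends chondroitin chains, rose by 2.09 and EXT1, a heparan sulphate polymerase, by 1.63, and EXTL2 fell by 1.40.

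**Figure D4:**
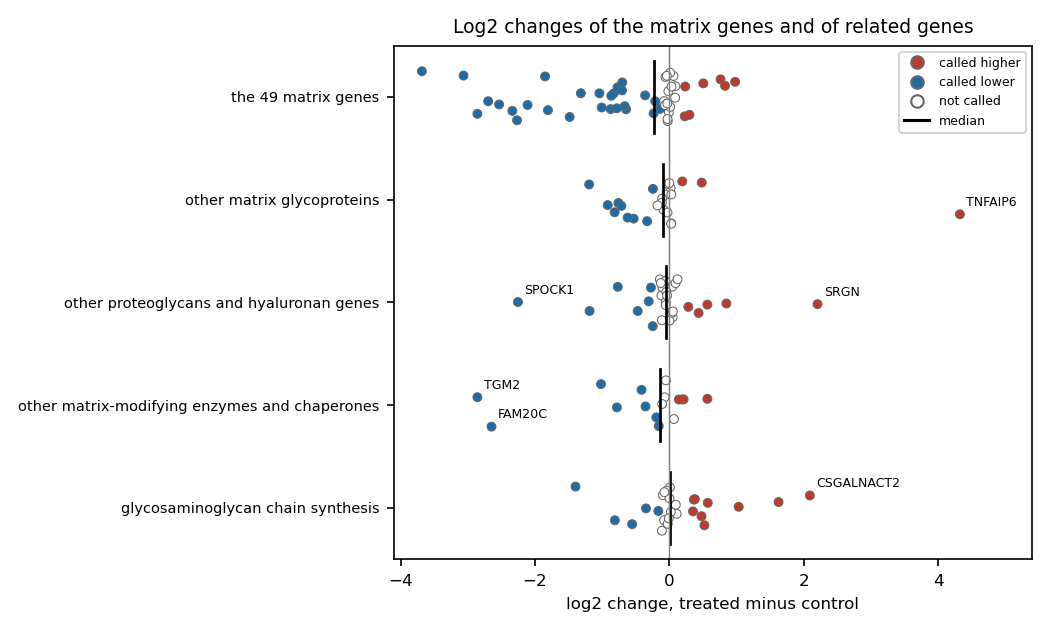
Log2 change (treated minus control, horizontal axis) of the 49 matrix genes and of 4 lists of related genes. Red points were called higher, blue points lower and open points not called, and the black line is the median. TNFAIP6 lies at 4.33, and TGM2 at -2.86.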

How the data were processed

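Per the submitters' processing notes, the authors used Transcriptome Analysis Console 4.0.1.36 and RMA (background correction, quantile normalization, probe summary) for the deposited log2 signals of the 6 arrays. Such values cannot show whether cells held more or less RNA in total. The genome build, detection p-values and scan batches are not given in the sources used here. Between 181 and 196 values per array lay above 16, more than a 16-bit scan holds, so the scale may have been stretched and sizes of change are uncertain.

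Of 67528 rows, 23781 had 1 symbol in the platform annotation, updated through the GRCh38.p14 gene table. The row with the highest mean was kept, for 22411 genes. Of the 49 members, DCN had a further row. The groups were set against each other in R 4.3.3 with limma 3.58.1, using lmFit and eBayes on all genes (degrees of freedom: 4 residual, 2.75 prior). The call threshold was 0.05 after Benjamini-Hochberg adjustment. "Near background" means below the median gene mean of 6.12. The test was tried on simulated data. The number of arrays limits the precision. Figures were drawn with matplotlib 3.10.9.

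The members, lists, motifs and tests were chosen with earlier results of these data known. Values on every array were given by rule for called members with a log2 change of at least 1 that were not near background in both groups, and in each related list the 3 called genes with the largest change were named. CD44, P4HB and genes such as HAPLN1 and KERA were named after their values were seen, as were members shown per array with smaller changes. Alternatives were a replicate block, each array left out, dim genes left out, all rows, the mean of a gene's rows, other scalings, trend with robust estimation, array weights, a compressed scale and a minimum change of 1. Correlations of deviations from the group mean between same-numbered arrays were -0.08, 0.04 and -0.05. No effect shared by a number was seen, but such values cannot exclude that the samples were paired.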

Additional observations from a re-analysis of the deposited data

How the results depend on the processing

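The deposited table limits what can be tested: without probe intensities, background and saturation could not be changed. Under 15 other settings, 504 values were computed for the 34 called members. None changed direction and 498 kept the call. The other 6 were all of MFAP5, whose adjusted p in limma was 0.0776 with the replicate block, 0.119 with all rows tested and between 0.0679 and 0.0918 with 1 of 4 arrays left out (treated replicates 1 and 3, control replicates 1 and 3). FBLN5, at 0.12, was called only with quantile normalization repeated (adjusted p = 0.0351). The replicate block gave 33 members called, 7 higher and 26 lower, and 9577 genes called in all. It changed no other call of a member, and since the numbers mark no known pairing, no more is read from it. Leaving out each array gave 33 to 34 members called, 12 to 15 of them with a change of at least 1, a median of -0.25 to -0.21 and 9298 to 9725 genes called, against 10212. Against a minimum change of 1, 12 members and 1508 genes were called, and with all rows tested 17201 rows were called. The median change of the members was -0.70 without dim genes, which left 35 members and 2 called proteoglycan genes, -0.31 with quantile normalization repeated and -0.18 with the scale compressed to 16, where 11 members had a change of at least 1. With the mean of its rows DCN fell by 0.48, less than 1.

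Among members not called, 12 values of 8 genes had the other sign, and none of these was called. With quantile normalization repeated ELN was at 0.035, HSPG2 at 0.013 and LTBP1 at -0.011. BGN and SPARCL1 were at -0.01 with arrays centred on their median, and ELN at 0.0019 with array weights. Leaving out 1 array gave -0.033 to 0.017 for ELN, -0.027 to 0.0033 for FBLN2, -0.073 to 0.037 for NCAN, -0.012 to 0.043 for SPARCL1 and -0.077 to 0.018 for THBS2.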
